A study of Mus musculus with 5 samples.

Results

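MHC class I antigen presentation was examined through 10 named genes: B2m, H2-K1, H2-D1, Tap1, Tap2, Tapbp, Psmb8, Psmb9, Nlrc5 and Cd274. A gene was measured through probe sets (groups of short probes spread along a transcript) annotated with its symbol alone, and the brightest of them was taken where there were several. By this rule 8 of the 10 genes were measured, among 19938 genes measured in the same way on the arrays. H2-K1 and H2-D1 had no probe set of their own, because both probe sets that name them also name each other, and they are described through these shared probe sets.

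The question behind the arrays was how embryonic stem cells (ESCs) differ after growth in a recipient of the same or of another hybrid strain, and after co-injection with recipient-strain somatic cells. Transcript levels of 5 cell populations were read on Mouse Gene 1.0 ST arrays (Affymetrix). The control array held the parental B6CBAF1 ESC line before injection. ESC-like cells were recovered from teratomas collected 5 weeks after subcutaneous injection of these ESCs alone into B6CBAF1 mice (homologous, 1 array) or into B6D2F1 mice (heterologous, 1 array). For co-injection, fetal fibroblasts (MFF) of the B6D2F1 strain were mixed with the B6CBAF1 ESCs, 1 part to 4 parts, and injected into B6D2F1 mice (2 arrays, named batch 1 and batch 2 in the labels). The injected ESCs of all groups were of 1 line, and all cells were grown on inactivated MFF of ICR mice, and the methods give more leukemia inhibitory factor for the recovered cells than for the parental line, whereas the labels give 1 amount for all. The heterologous cells came from the single teratoma that formed, and the sources used here do not say whether the co-injection batches came from separate teratomas. Neither the sex nor the age of the recipients is given in the labels or the methods.

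MHC class I molecules display peptides from inside a cell to CD8 T cells and are also read by natural killer cells. A heavy chain such as H2-K or H2-D pairs with beta-2 microglobulin, proteasomes cut the peptides, the TAP transporter moves them into the endoplasmic reticulum, and tapasin holds the empty class I molecule beside the transporter until a peptide is bound. Embryonic stem cells are known for low surface class I, and interferon-gamma raises most genes of the pathway through STAT and IRF factors and the regulator NLRC5. The donor and recipient hybrids differ in class I alleles, since CBA mice carry the k haplotype and DBA mice the d haplotype, and these arrays do not separate alleles.

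Array values are log2 of the probe set signal, so a difference of 1 is a 2-fold difference. Medians of the 5 arrays lay between 7.48 and 7.54. Apart from the co-injection pair (n = 2) each condition had 1 array, so a difference between single arrays has no replicate check and was judged by the fold rule. The spread of the co-injection pair was the only measure of error, and it may miss variation between teratomas. Between these batches the members differed by a median of 0.07 and by at most 0.15 on the log2 scale, against a median of 0.07 and a 95th percentile of 0.25 over all genes. Values of different probe sets were not compared as transcript amounts, because probes differ in their response. The summed linear values of marker lists add probe sets, so bright ones weigh most in them.

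The pathway did not move as a block. B2m was above parental ESCs on all 4 arrays of teratoma-derived cells, most in heterologous cells, and Tap1 was above by less. Tapbp was below on all 4, and Tap2, Psmb8, Psmb9, Nlrc5 and Cd274 differed by at most 0.30 from the parental value on any array. More than 2-fold above parental ESCs was 1 of 8 members, B2m, both in homologous cells, where 1.45% of all genes were, and in heterologous cells, where 3.98% were. In co-injection cells 0 of 8 were, against 0.647% of all genes. More than 2-fold below was 0 of 8 in each, against 1.6%, 1.95% and 1.44% of all genes in homologous, heterologous and co-injection cells.

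With the threshold at 1.5-fold, B2m was counted as higher in homologous cells (1 of 8 members, 4.93% of all genes) and in co-injection cells (1 of 8, 2.77%), and B2m and Tap1 in heterologous cells (2 of 8, 7.88%). Tapbp alone was counted as lower, in homologous (4.58% of all genes), heterologous (5.3%) and co-injection cells (4.13%). The median log2 difference of the 8 members from parental ESCs was 0.06 in homologous cells, -0.05 in heterologous cells and 0.21 in co-injection cells (0.21 and 0.18 in batches 1 and 2 alone), beside -0.01, -0.04 and 0.04 over all genes. The 3 differences share the parental array, so an unusual value there would shift all of them.

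**Figure D1:**
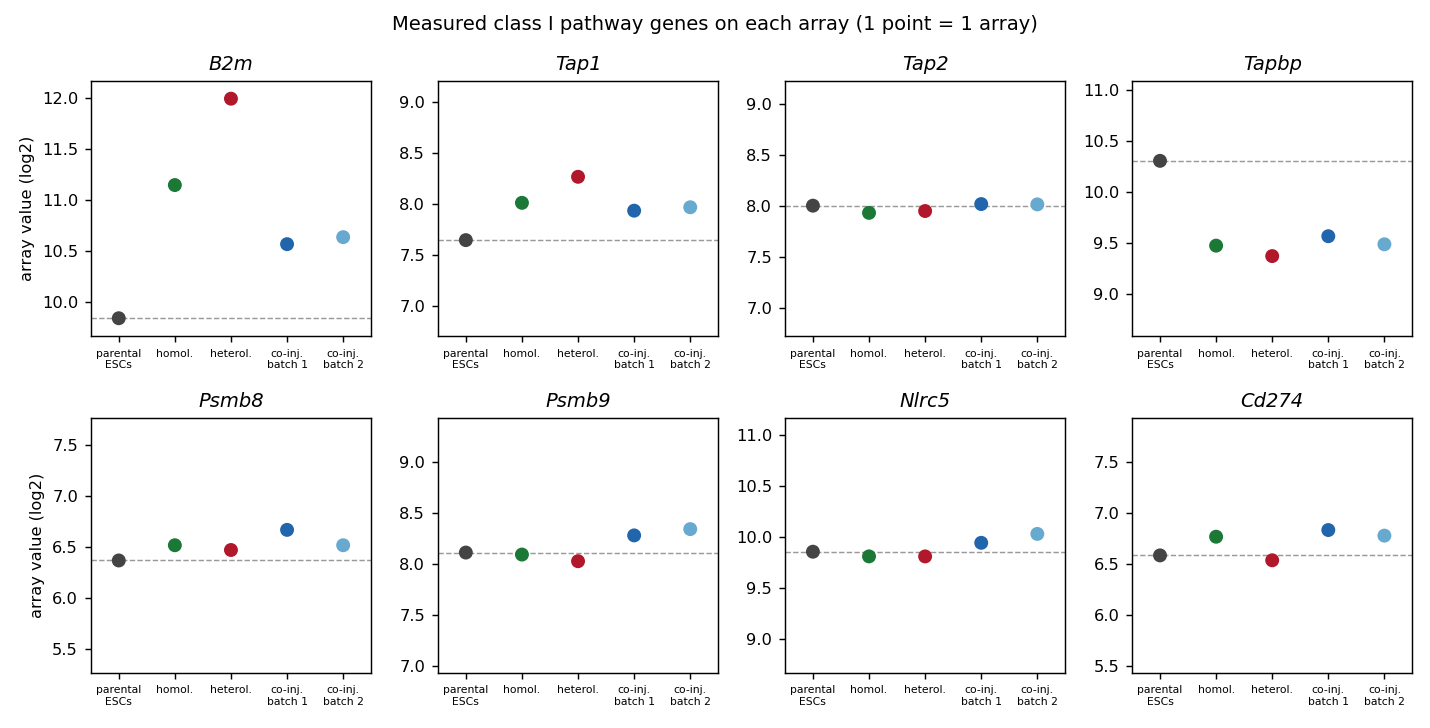
Log2 array value (vertical axis, each panel spanning 2.5 units) of the 8 measured class I pathway genes on each of the 5 arrays, 1 point per array, with the parental value as a dashed line. B2m lies between 10.57 and 11.99 on the 4 arrays of teratoma-derived cells against 9.84 in parental ESCs, and Tapbp lies below its parental value of 10.301 on all 4.

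B2m encodes beta-2 microglobulin, the light chain without which class I heavy chains do not reach the surface. Its log2 value was 9.84 in parental ESCs, 11.15 in homologous cells, 11.99 in heterologous cells, and 10.57 and 10.64 in co-injection batches 1 and 2. Parental ESCs were the lowest of the 5 arrays and heterologous cells the highest, with both co-injection batches between the parental and the homologous array. These values put B2m 2.47-fold above parental ESCs in homologous cells (log2 difference 1.31), 4.45-fold above in heterologous cells (2.15) and 1.69-fold above in co-injection cells (0.76 ± 0.049, SD, n = 2).

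Between teratoma-derived cells, B2m was 1.80-fold higher in heterologous than in homologous cells (log2 difference 0.85). It was 2.63-fold lower in co-injection than in heterologous cells (-1.39), the only member past 2-fold in that comparison (1 of 8, against 3.35% of all genes in either direction). Against homologous cells it was 1.46-fold lower in co-injection cells (-0.55). No member was past 2-fold between heterologous and homologous cells (0 of 8, against 3.06% of all genes) or between co-injection and homologous cells (0 of 8, against 0.426%).

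Upstream sequence is shown for B2m and H2-D1, whose products form the class I molecule, and for Tap1 and Tapbp, the members that follow B2m in size of difference. The 250 bases before the RefSeq start site are printed 5′ to 3′ on the plus strand of GRCm38.p6, with motif matches in capitals. The windows are chr2:122147437-122147686 for B2m, chr17:35262844-35263093 for H2-D1, chr17:34187306-34187555 for Tap1 and chr17:33919228-33919477 for Tapbp.
B2m: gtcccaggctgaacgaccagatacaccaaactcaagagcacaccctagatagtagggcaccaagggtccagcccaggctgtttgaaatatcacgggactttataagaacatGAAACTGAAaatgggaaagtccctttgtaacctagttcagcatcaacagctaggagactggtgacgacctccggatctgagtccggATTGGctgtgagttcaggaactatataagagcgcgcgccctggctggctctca
H2-D1: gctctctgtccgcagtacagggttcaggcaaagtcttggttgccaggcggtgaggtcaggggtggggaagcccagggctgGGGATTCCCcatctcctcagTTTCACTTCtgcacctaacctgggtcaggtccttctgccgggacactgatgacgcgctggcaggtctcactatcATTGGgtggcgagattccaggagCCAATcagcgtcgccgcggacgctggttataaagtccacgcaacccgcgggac
Tap1: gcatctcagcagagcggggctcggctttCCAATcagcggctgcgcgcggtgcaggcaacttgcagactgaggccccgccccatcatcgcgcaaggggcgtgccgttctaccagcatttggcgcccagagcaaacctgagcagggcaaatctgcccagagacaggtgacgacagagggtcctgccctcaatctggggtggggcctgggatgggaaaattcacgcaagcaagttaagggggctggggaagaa
Tapbp: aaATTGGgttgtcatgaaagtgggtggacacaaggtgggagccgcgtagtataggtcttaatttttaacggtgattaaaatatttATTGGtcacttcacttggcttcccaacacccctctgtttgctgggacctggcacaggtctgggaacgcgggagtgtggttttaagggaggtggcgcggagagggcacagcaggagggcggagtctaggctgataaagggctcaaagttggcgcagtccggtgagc

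Motifs were searched on both strands of windows from 250 bases before to 50 bases after a start, which RefSeq gave for 8 of the 10 members. The B2m window held 1 match to TTCNNTTTC, a core of the interferon-stimulated response element, printed as GAAACTGAA because it lies on the minus strand, and 1 ATTGG, the Y box. The H2-D1 window, like those of H2-K1, held GGGATTCCC, an NF-kappaB motif, then TTTCNNTTC, and 2 Y boxes, of which the second is printed as CCAAT. TTTCNNTTC, the other arm of the response element, was added after the sequences had been seen. Tap1 held 1 Y box and Tapbp 2, and neither held any other motif of the search. Among the other members, Cd274 held 1 TTCNNTTTC, Psmb8 held 1 TTCNNNGAA, a STAT motif, and Psmb9 held 1 ATTGG.

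Short motifs are common, and a match is a description of letters only. Of all 32851 windows, 8.56% held TTCNNTTTC, 7.52% TTTCNNTTC, 8.3% TTCNNNGAA, 37.4% ATTGG and 0.353% GGGATTCCC. The CRE-like motifs TGACGTCA and TGACGCAA were in 1.79% and 0.49% of windows and in none of the members' windows. Tap1 and Psmb9 are transcribed in opposite directions from start sites 226 bases apart, so their windows share 275 bases and the Y box of both is the same one. Their log2 differences from parental ESCs were 0.37 and -0.02 in homologous cells and 0.62 and -0.08 in heterologous cells.

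The heavy chains could be read only through shared probe sets. The probe set listing H2-K1 first, together with H2-D1 and LOC547349, had log2 values of 8.57 in parental ESCs, 9.24 in homologous cells, 9.61 in heterologous cells, and 9.12 and 9.13 in the co-injection batches. Parental ESCs were the lowest array, and the order of the other conditions was that of B2m, with log2 differences of 0.67, 1.03 and 0.55 in homologous, heterologous and co-injection cells (2.04-fold in heterologous cells). The probe set listing H2-D1 first, with the same 3 symbols, had values of 9.03, 8.98, 9.80, 8.91 and 8.90 in the same order. Here only heterologous cells were above parental ESCs, by 0.76, while homologous and co-injection cells differed by -0.05 and -0.12. Which of the heavy chain genes or alleles gave either signal cannot be told apart.

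Peptides enter the endoplasmic reticulum through a transporter made of TAP1 and TAP2. The log2 value of Tap1 was 7.64 in parental ESCs, 8.01 in homologous cells, 8.26 in heterologous cells, and 7.93 and 7.97 in the co-injection batches. Tap1 was thus lowest in parental ESCs and highest in heterologous cells, as B2m was, with smaller steps of 1.29-fold, 1.54-fold and 1.24-fold (log2 0.37, 0.62 and 0.31 ± 0.024, SD, n = 2). Homologous and co-injection cells differed by only 0.06 in Tap1, close to the gap of 0.03 between the batches. Tap2, the other subunit, had values of 8.0, 7.93, 7.95, 8.02 and 8.01. Its 5 arrays spanned 0.09, so the subunits of the transporter did not move together.

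Tapbp encodes tapasin, which bridges the transporter and the empty class I molecule. Its log2 value was 10.301 in parental ESCs, 9.47 in homologous cells, 9.37 in heterologous cells, and 9.56 and 9.48 in the co-injection batches. The parental array stood above all 4 others, which lay within 0.20 of each other. Tapbp was 1.78-fold lower in homologous cells (log2 difference -0.83), 1.91-fold lower in heterologous cells (-0.93) and 1.72-fold lower in co-injection cells (-0.78 ± 0.056, SD, n = 2). The direction was opposite to that of B2m and Tap1 on every teratoma-derived array. A pair of further probe sets name Tapbp together with the ribosomal protein gene Rps3a1 and were not used for Tapbp. On these the differences lay between 0.10 and 0.18, above the parental value.

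Psmb8 and Psmb9 encode catalytic subunits that replace their constitutive counterparts in the immunoproteasome. Psmb8 had log2 values of 6.37 in parental ESCs, 6.52 in homologous cells, 6.47 in heterologous cells, and 6.67 and 6.52 in the co-injection batches. Parental ESCs were lowest, by 0.15, 0.10 and 0.22 ± 0.11 (SD, n = 2), and the batches themselves differed by 0.15. Psmb9 had values of 8.12, 8.10, 8.03, 8.28 and 8.35. Both co-injection batches were above the other 3 arrays, at 0.20 ± 0.044 (SD, n = 2) over parental ESCs, while homologous and heterologous cells differed from them by -0.02 and -0.08.

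Nlrc5 encodes the transcriptional activator of class I genes. Its brightest probe set had log2 values of 9.85 in parental ESCs, 9.81 in homologous cells, 9.81 in heterologous cells, and 9.94 and 10.03 in the co-injection batches. Both co-injection batches were highest, by 0.13 ± 0.062 (SD, n = 2) over parental ESCs, and the other 3 arrays lay within 0.05. The gene had 19 probe sets, none of which differed by more than 2-fold in any comparison. Over them the difference from parental ESCs ran from -0.28 to 0.24 in homologous cells (median -0.01), from -0.29 to 0.22 in heterologous cells (median -0.05) and from -0.03 to 0.33 in co-injection cells (median 0.14, above 0 in 18 of 19). Genes of chromosome 8, which holds Nlrc5, had a median difference of 0.27 in homologous, 0.05 in heterologous and 0.24 in co-injection cells. These were the 632 genes with a mean above 7.49, the median of all array values. The part of this chromosome shift in the Nlrc5 values was not tested.

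Cd274 encodes PD-L1, a surface ligand that restrains T cells. Its log2 values were 6.58 in parental ESCs, 6.76 in homologous cells, 6.53 in heterologous cells, and 6.83 and 6.77 in the co-injection batches. Heterologous cells were the lowest array and co-injection batch 1 the highest, over a range of 0.30. The differences from parental ESCs were 0.18, -0.05 and 0.22 ± 0.039 (SD, n = 2). Cd274 and Psmb8 were the only measured members whose mean value lay below 7.49, the median of all array values. For Nlrc5 this rests on the brightest of its 19 probe sets. Several of the others lay below 7.49 on every array, down to 4.98 in parental ESCs.

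**Figure D2:**
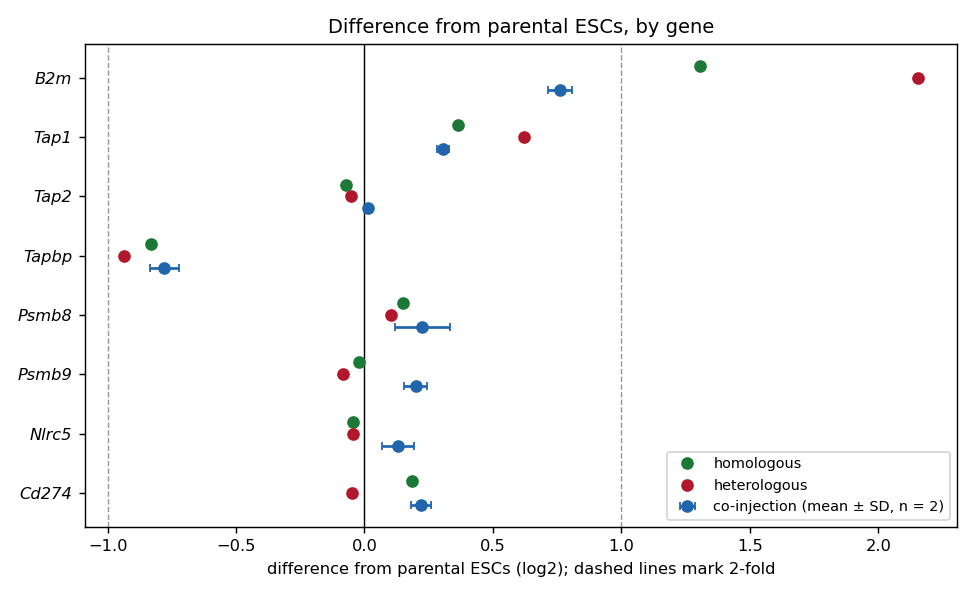
Log2 difference from parental ESCs (horizontal axis, dashed lines at 2-fold) of each measured member in homologous, heterologous and co-injection cells, the last as mean ± SD of 2 arrays, with single arrays for the others. B2m is past the 2-fold line in homologous (1.31) and heterologous cells (2.15), Tapbp lies between -0.93 and -0.78, and the other members lie between -0.08 and 0.62.

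On the genome most of the pathway sits together: Tapbp, H2-K1, Psmb9, Tap1, Psmb8, Tap2 and H2-D1 lie on chromosome 17 in this order, B2m on chromosome 2, Nlrc5 on chromosome 8 and Cd274 on chromosome 19. The median neighbour of B2m was near the parental level. Among B2m and the 40 nearest genes with a mean above 7.49, B2m ranked 1 from the highest in homologous and in heterologous cells and 2 in co-injection cells, while the neighbours' medians were -0.01, -0.01 and -0.05. Of the 40 neighbours, 2, 2 and 1 were more than 2-fold above parental ESCs in homologous, heterologous and co-injection cells, and none was more than 2-fold below. Tap1 ranked 1 of the same number in all 3 comparisons, and Tapbp ranked 39 in all 3, with neighbour medians between -0.12 and -0.06. Tap1 and Tapbp thus ranked near opposite ends among their neighbours on chromosome 17. Other members were not removed from these neighbours, so the sets are not independent of the pathway.

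A few genes outside the pathway had array profiles close to those of the 3 members with the widest range. Likeness was the root mean square difference of log2 values centred on each gene's mean over the 5 arrays. For B2m these were Marcks (0.0541), which encodes an actin-binding substrate of protein kinase C, Lipa (0.116), the lysosomal acid lipase gene, and Mir539 (0.124), a microRNA gene. Marcks differed from parental ESCs by 1.32, 2.25 and 0.88 in homologous, heterologous and co-injection cells. For Tapbp they were Kdm5c (0.0335), a histone demethylase gene, Ooep (0.0389) and Zcchc10 (0.0413). For Tap1 they were Slc16a4 (0.0139), Ahr (0.0156), which encodes a ligand-activated transcription factor, and Inka1 (0.0212). With 5 arrays, many genes can be this close to any profile.

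Other genes of peptide processing and loading did not move as far as B2m. Of 14 listed genes 13 were measured, and none differed by more than 2-fold from parental ESCs in any comparison. Their median log2 differences were 0.10 in homologous, 0.09 in heterologous and 0.11 in co-injection cells. Psmb10, the third inducible catalytic subunit, had values of 8.64, 9.09, 8.81, 9.46 and 9.24, and both co-injection batches were highest, 0.71 ± 0.16 (SD, n = 2) above parental ESCs. Psme1 and Psme2, which encode the interferon-inducible proteasome activator, were 0.41 and 0.47 above parental ESCs in homologous cells, 0.09 and 0.05 above in heterologous cells, and 0.36 and 0.19 above in co-injection cells. Of the 14 constitutive proteasome genes all were measured and none passed 2-fold, with medians of -0.03, -0.07 and 0.02.

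Among other class I and class I-like genes, 25 of 36 were measured, with medians of -0.06, -0.01 and 0.03. H2-M5, a nonclassical class I gene, was past 2-fold in all 3 comparisons. Its values were 9.88 in parental ESCs, 8.05 in homologous cells, 8.41 in heterologous cells, and 8.10 and 8.23 in the co-injection batches, so the parental array stood alone above the others (log2 differences -1.82, -1.46 and -1.71 ± 0.092, SD, n = 2). Mr1, whose product presents vitamin B metabolites, stood out only on the heterologous array, with values of 6.55, 6.66, 8.36, 6.12 and 6.50, and it is one of the dim probe sets, with a mean below 7.49. Of 13 class II genes 11 were measured, and those past 2-fold were lower. Cd74, the invariant chain gene, differed by -1.19, -1.05 and -0.64, and H2-Eb1 by -1.03, -1.02 and -0.94. The count of 2 in heterologous cells became 0 with cyclic loess, and leaving out dim probe sets made it 1 there and in homologous cells.

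Genes of class I transcription and interferon signalling had medians near 0 (0.04, 0.00 and 0.00 over 26 of 28 genes). The 3 past 2-fold were Ifngr1, Ifngr2 and Irf2, each only on the heterologous array. Ifngr2, a chain of the interferon-gamma receptor, had values of 8.77 in parental ESCs, 9.40 in homologous cells, 11.01 in heterologous cells, and 8.61 and 8.74 in the co-injection batches, which made heterologous cells 4.71-fold higher than parental ESCs. Ifngr1, the ligand-binding chain, differed by 1.19 there and Irf2, an IRF factor, by 1.32. Without dim probe sets (mean below 7.49), of which Irf2 is one, the count was 2.

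Interferon target genes past 2-fold lay mostly below parental ESCs. Of 28 listed 23 were measured, and 4, 5 and 4 were lower in homologous, heterologous and co-injection cells against 1, 1 and 0 higher, with medians of -0.13, -0.04 and 0.00. Xaf1, an interferon-induced gene linked to apoptosis, differed by -1.98, -1.72 and -1.82. Oas2, an antiviral oligoadenylate synthetase gene, differed by -1.49, -1.55 and -1.24. Those higher were Bst2, which encodes tetherin, in homologous cells (1.23) and Irgm1, an interferon-inducible GTPase gene, in heterologous cells (1.27). Without dim probe sets the lower counts were 2, 3 and 2, and Irgm1 was no longer counted. The direction of B2m was not that of most interferon targets past 2-fold.

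Immune regulatory and natural killer cell ligands were measured for 22 of 30 genes, with medians of -0.07, 0.34 and -0.02. Past 2-fold above parental ESCs were 1 gene in homologous cells, 4 in heterologous cells and 0 in co-injection cells, and none was past 2-fold below. The homologous count was 0 with the mean of all probe sets of a gene, and the heterologous count was 2 without dim probe sets. Cd47, whose product restrains uptake by macrophages, had values of 8.16, 9.28, 9.77, 8.59 and 8.72, lowest in parental ESCs and highest in heterologous cells (1.11, 1.61 and 0.50 ± 0.090, SD, n = 2). Cd80, a costimulatory ligand gene, differed by 1.61 on the heterologous array and by -0.10 and -0.62 in homologous and co-injection cells. Housekeeping genes, 7 of 10 measured, had medians of -0.01, 0.03 and -0.02 and none past 2-fold.

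**Figure D3:**
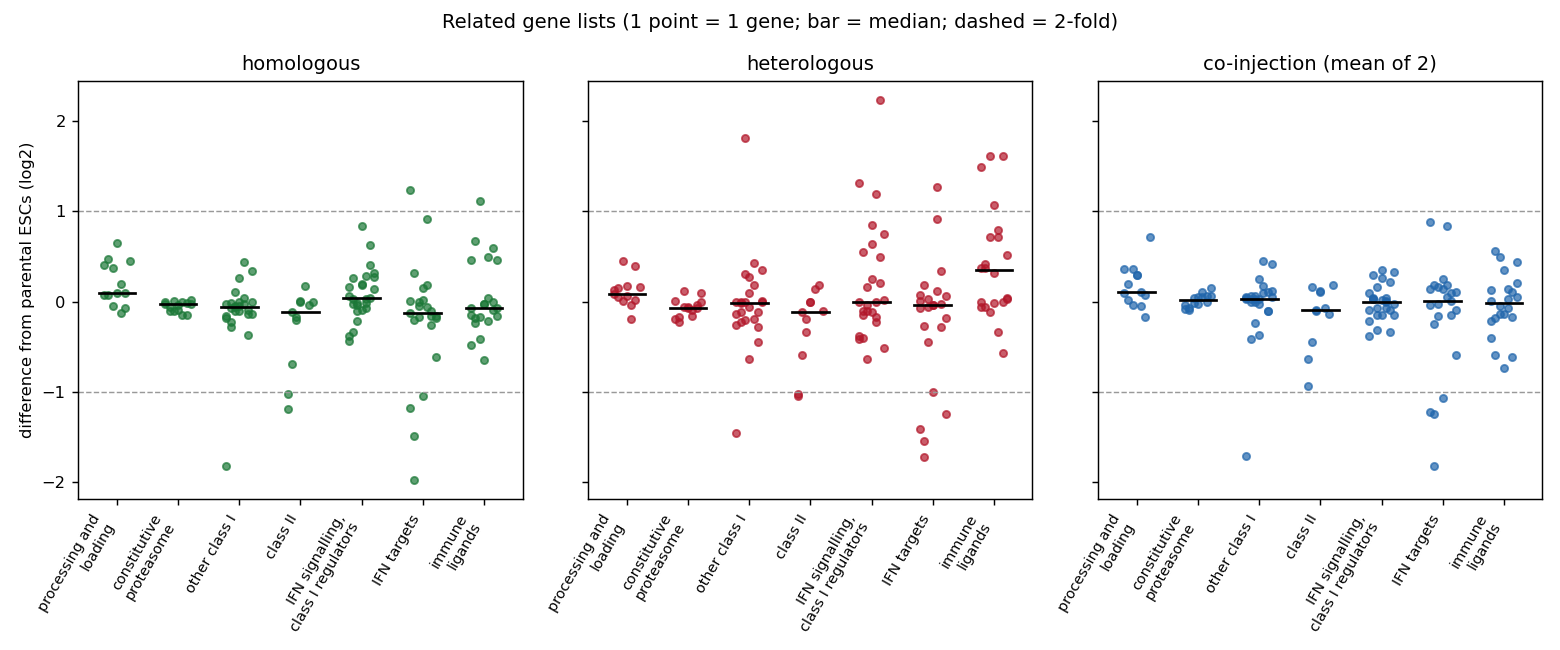
Log2 difference from parental ESCs (vertical axis, dashed lines at 2-fold) for the genes of 7 related lists, 1 point per gene and a bar at each list's median, in homologous cells, heterologous cells and the mean of both co-injection arrays. Points above 2 occur only in heterologous cells, where Ifngr2 reaches 2.24, and most points below -1 in each panel are interferon targets.

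The cells were checked against defining markers, because these arrays measure bulk RNA, in which fewer cells of a type and less RNA per cell cannot be told apart. All 13 ESC markers had a mean above 7.49. Most were below parental ESCs: 9 of 13 in homologous, 11 in heterologous and 10 in co-injection cells, with medians of -0.24, -0.60 and -0.21, and 1, 4 and 0 were more than 2-fold lower. Klf4 was past 2-fold lower in homologous (-1.08) and heterologous cells (-1.43), and Zfp42 in heterologous cells (-1.63). Lin28a was above parental ESCs in all 3 comparisons, by 0.28, 0.41 and 0.37. The summed linear value of the 13 was 0.843, 0.752, 0.843 and 0.847 of the parental one in homologous cells, heterologous cells and co-injection batches 1 and 2. Fibroblast genes were high on the heterologous array. Of 24 measured of 25, 17 were more than 2-fold higher there and none lower, against 2 and 0 in homologous cells and 1 and 4 in co-injection cells. Their summed linear value was 1.35, 2.62, 0.905 and 0.920 of the parental one in the same order of arrays.

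The fibroblast level thus moved with B2m on the homologous and heterologous arrays, and on the heterologous array with Tap1, Ifngr1, Ifngr2, Irf2, Irgm1, Mr1, Cd47 and Cd80. Its part in those differences was not tested. In both co-injection batches B2m was above parental ESCs by 0.73 and 0.80 while the summed fibroblast level was below the parental one. The Fn1 and Vim probe sets were the largest terms of that sum. Of the 24 fibroblast genes, 8 were above and 16 below parental ESCs in co-injection cells, with a median of -0.13. The part of fibroblast RNA in the B2m difference of co-injection cells was not tested. Leukocyte and lymphocyte markers, 15 of 16 measured, had none past 2-fold, and 14 of the 15 had a mean below 7.49. Their summed linear value was 0.798, 0.787, 0.860 and 0.923 of the parental one, with the Cd3e probe set as the largest term of the sum. Their median difference was -0.07, -0.16 and 0.05 in homologous, heterologous and co-injection cells, with 9 of the 15 above parental ESCs in co-injection cells.

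Macrophage markers, 14 of 15 measured with 12 below 7.49, summed to 0.675, 0.839, 0.785 and 0.812 of the parental value, with the Cd68 probe set as the largest term. Their medians were -0.14, 0.02 and 0.03, and on the heterologous array 7 were above and 7 below parental ESCs. Lyz2 was 2.24-fold higher there and Fcgr3 was past 2-fold lower (-1.08). The part of leukocyte or macrophage RNA in the B2m differences was not tested. Endothelial markers, 10 of 10 measured, had medians of 0.08, -0.15 and 0.04. Only Pecam1 was past 2-fold, lower in heterologous cells (-1.44).

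**Figure D4:**
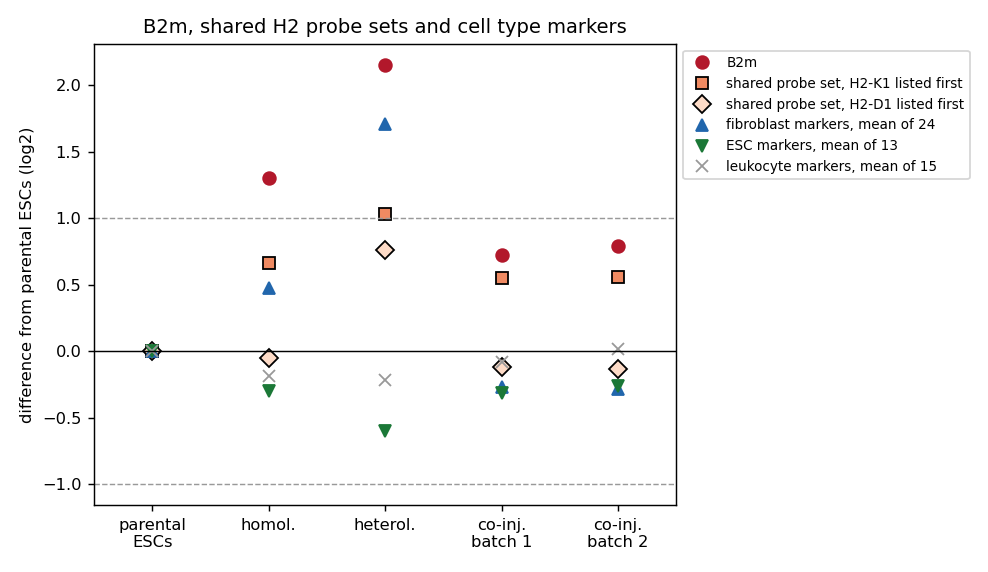
Log2 difference from parental ESCs (vertical axis, dashed lines at 2-fold) on each of the 5 arrays for B2m, the shared H2-K1 and H2-D1 probe sets and the mean of the fibroblast, ESC and leukocyte marker genes. The fibroblast mean is 0.47 in homologous and 1.71 in heterologous cells and below 0 in both co-injection batches (-0.27 and -0.28), where B2m is at 0.73 and 0.80.

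As an alternative, a limma fit to all 5 arrays, which rests on 1 residual degree of freedom, called 0% of genes at an adjusted p under 0.05 in each of the 6 comparisons. Its error came only from the co-injection pair, so its p-values do not measure spread in the groups with 1 array. The log2 difference of B2m from parental ESCs was 1.31 in homologous, 2.15 in heterologous and 0.76 in co-injection cells. The 4 of 4 arrays on which B2m was higher span different conditions and share the parental array, so they are not 4 replicates.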

How the data were processed

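The authors read probe intensities of the Affymetrix GeneChip Mouse Gene 1.0 ST arrays in GCOS, summarised them by RMA with quantile normalization, and deposited log2 values. Software versions and the genome build were not given in the sources used here. Deposited log2 values of 35556 probe sets on 5 arrays, from 2.77 to 13.97, were used without further normalization. The platform annotation gives 1 symbol to 21789 probe sets, several to 1621 and none to 12146, and genes were named only from the first. The number of arrays limits the precision.

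Each difference subtracts the log2 value of the second condition named from that of the first, with co-injection as the mean of its arrays. A gene was counted past 2-fold when the difference was over 1, the rule of the methods. The paper counts the co-injection arrays as separate lines of ESC-like cells. Whether these lines came from separate teratomas is not stated, so their spread may miss variation between teratomas. Gene order and upstream sequences come from RefSeq tables for GRCm38.p6, with 18552 genes matched by Entrez ID.

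Named were all members, the genes of each list past 2-fold (at most 2 in each direction per comparison) and the 3 non-member genes closest to each of the 3 members with the widest range. Psmb10, Psme1, Psme2, Ifngr1 and single cell type markers were named after their values were seen. The members and lists were chosen with earlier results of these data known. Alternatives were thresholds of 1.5-fold and 3-fold, the mean of all probe sets of a gene, leaving out dim probe sets (mean below 7.49), cyclic loess on the deposited values, limma, and leaving out each co-injection array. Both the 2-fold rule and the limma fit were also run on simulated data. The simulated noise came from the co-injection pair alone, so it may miss variation between teratomas. No other background correction and no block for the slide was tried, since these need scanner files, which were not used here. Python 3.11.15, numpy 2.4.6, pandas 2.3.3, matplotlib 3.10.9, R 4.3.3 and limma 3.58.1 (eBayes, Benjamini-Hochberg) were used.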

Additional observations from a re-analysis of the deposited data

How the results depend on the processing

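B2m kept its direction in all 6 comparisons under each alternative that gave a value. Its difference from parental ESCs stayed at 1.31 in homologous cells and ran from 2.15 to 2.19 in heterologous and from 0.73 to 0.80 in co-injection cells. Tap1, Tapbp and Psmb9 kept their direction as well. B2m, Tap1, Tapbp and Psmb9 each have 1 probe set of their own, with a mean above 7.49. The mean of all probe sets and leaving out dim probe sets therefore could not change their values. Only cyclic loess and leaving out a co-injection array could do so. The sign turned under an alternative only for small differences of Tap2, Psmb8, Nlrc5 and Cd274. Counts of members past the threshold depend on it: at 1.5-fold they were 2 in homologous, 3 in heterologous and 2 in co-injection cells against parental ESCs and 1 between heterologous and homologous cells, in place of 1, 1, 0 and 0. At 3-fold they were 0 in homologous cells against parental ESCs and 0 between co-injection and heterologous cells, in place of 1 and 1, so that only the heterologous array kept B2m. limma gave 0 for each of these 3 counts. Shares of all genes were not counted at 3-fold, nor at 1.5-fold between heterologous and homologous cells, so those counts have no background. The median of the members moved with the setting. Without dim probe sets, which drops Psmb8 and Cd274, it was -0.033 in homologous and 0.17 in co-injection cells against parental ESCs and 0.0088 between heterologous and homologous cells. With cyclic loess it was 0.0063 in heterologous and 0.16 in co-injection cells, 0.010 between heterologous and homologous cells and 0.054 between co-injection and heterologous cells. With the mean of all probe sets it was -0.050 between heterologous and homologous cells. Leaving out 1 co-injection array gave 0.18 to 0.21 against parental ESCs, 0.09 to 0.16 against heterologous cells and 0.01 to 0.09 against homologous cells. The cause of these shifts was not tested. No paired analysis was possible because only co-injection has a second array, so the groups share fewer than 2 replicate numbers.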
